A study of Mus musculus with 36 samples.

Results

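Transcripts for taking fatty acids into muscle mitochondria and oxidising them there were followed in the diaphragm of mdx and control mice at 6 ages. The genes were Slc25a20, Cpt1b, Cpt2, Ucp3, Ech1, Acadm, Acadl, Acadvl and Hadh, and their members on the array were all probe sets whose annotation gives exactly one of these symbols. That gave 8 of the 8251 genes with a probe set of their own, read by 10 of the 12488 probe sets; Cpt1b was not analysed here. Of the 10 probe sets, 7 passed the filter on low signal, 1 each for Slc25a20, Cpt2, Ucp3, Ech1, Acadm, Acadl and Hadh, and each of these exceeded the filter on all 36 arrays. The other 3 never did: the Acadvl probe sets read 11.0 to 267 and 4.7 to 205 signal units over the arrays, and an alternative Cpt2 probe set read 4.8 to 89.8. No comparison was drawn for them.

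The study profiled total RNA of whole diaphragm, the main breathing muscle, on 1-colour Affymetrix arrays. The mdx mouse carries a mutation of the dystrophin gene Dmd in every cell and models Duchenne muscular dystrophy; the controls are named wild type in the series title. Both genotypes were sampled at 7, 14, 23, 28, 56 and 112 days of age, with 3 arrays for each genotype and age. The labels give no strain, sex, treatment or pooling, and nothing states that the arrays of a group came from separate animals, so the spread behind the p-values is that of these arrays and may be technical only.

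Long-chain fatty acids enter the mitochondrion as carnitine esters. Carnitine palmitoyltransferase 1 on the outer membrane (Cpt1b in muscle) forms the ester, the translocase Slc25a20 carries it across the inner membrane, and Cpt2 returns the fatty acid to coenzyme A in the matrix. Repeated beta oxidation rounds then shorten the chain. An acyl-CoA dehydrogenase for very long (Acadvl), long (Acadl) or medium (Acadm) chains opens a round. Hadh is a dehydrogenase that oxidises hydroxyacyl intermediates, and the isomerase Ech1 prepares unsaturated chains. Ucp3 is an inner membrane carrier of skeletal muscle whose transcript is known to respond to fatty acid supply.

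Promoter sequences are shown for Slc25a20 and Cpt2, the carnitine carrier step and the enzyme after it, and for Ucp3, the gene whose age course departed from theirs. Each runs 5′ to 3′ from 250 bases before to 50 bases after the RefSeq start site in GRCm38.p6, and capitals mark AGGTCA, the core letters bound by many nuclear receptors, and GGGCGG, the GC box, on either strand.
Slc25a20 (chr9:108661886-108662185, plus strand): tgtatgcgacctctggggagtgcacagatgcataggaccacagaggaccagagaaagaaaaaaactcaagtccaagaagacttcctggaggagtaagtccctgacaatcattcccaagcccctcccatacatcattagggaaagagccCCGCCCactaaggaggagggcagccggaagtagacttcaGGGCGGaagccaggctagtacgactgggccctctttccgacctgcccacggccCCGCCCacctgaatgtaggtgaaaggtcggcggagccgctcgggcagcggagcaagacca
Cpt2 (chr4:107923540-107923839, minus strand): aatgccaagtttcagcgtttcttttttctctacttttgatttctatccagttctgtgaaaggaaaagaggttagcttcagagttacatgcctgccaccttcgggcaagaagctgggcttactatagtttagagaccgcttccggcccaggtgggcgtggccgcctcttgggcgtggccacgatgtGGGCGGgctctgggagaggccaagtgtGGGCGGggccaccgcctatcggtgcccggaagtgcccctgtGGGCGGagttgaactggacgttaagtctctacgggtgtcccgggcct
Ucp3 (chr7:100472741-100473040, plus strand): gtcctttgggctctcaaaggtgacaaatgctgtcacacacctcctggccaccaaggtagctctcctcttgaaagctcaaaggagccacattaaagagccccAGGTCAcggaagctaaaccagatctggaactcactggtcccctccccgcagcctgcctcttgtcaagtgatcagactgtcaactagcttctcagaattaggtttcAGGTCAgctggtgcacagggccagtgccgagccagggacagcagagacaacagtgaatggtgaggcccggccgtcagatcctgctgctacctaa
Such a 300-base window was found for 8 of the 9 genes. AGGTCA occurred in 3 of the 8 (Ucp3, Acadm and Acadvl), against 16.3% of all 32851 mouse windows of this length. The Ucp3 window held it at -149 and at -44 relative to the start, counted at its first base. The direct repeat DR1 (AGGTCA, 1 base of any kind, AGGTCA), a letter pattern known for peroxisome proliferator-activated receptors, was in 0 of the 8 and in 0.0396% of all windows. GGGCGG was in 5 of the 8 (Slc25a20, Cpt2, Ech1, Acadl and Hadh), against 35.7% of all, and the E box CANNTG was in 6 of the 8, against 72.3% of all. Both strands were searched, and these matches describe letters only.

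The labelled tissue was checked against 20 muscle fibre transcripts, of which creatine kinase Ckm read at least 13125 and slow myosin Myh7 at least 20455 signal units on every array. The skeletal actin transcript Acta1, in contrast, ranged from 151 to 54486 units over the arrays. The single Dmd probe set read 139 to 712 units on the 18 mdx arrays, against 330 to 1026 on the 18 control arrays. Over the ages it was lower in mdx, at -1.01 ± 0.122 on the log2 scale (SE; adjusted p = 2.22e-07). Where its probes lie relative to the mutation was not used here. Array medians lay between 450.6 and 723.4 units, and at 56 days they were 669.9 to 723.4 in mdx and 552.0 to 606.2 in controls. Albumin, a liver transcript, exceeded 10000 units on 9 arrays: 1 mdx array each at 7, 14 and 112 days, and 1 control array at 7 days, 2 at 14, 1 at 56 and 2 at 112 days. Gapdh control probe sets read 3′ over 5′ at ratios of 0.0357 to 0.971. No 2 arrays were identical, and the highest correlation between any 2 was 0.975.

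In the mdx diaphragm all 7 measured genes were lower than in controls at 56 and at 112 days. At 23 days Ucp3 was called lower, and Cpt2 too, though its call was lost under several settings. At 7 and 14 days no gene was called. Differences below are mdx minus control on the log2(signal + 32) scale from 1 limma fit over all 36 arrays, and a gene is called where the p adjusted over all 9291 tested probe sets is under 0.05. Signals of different probe sets are not set against each other.

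**Figure D1:**
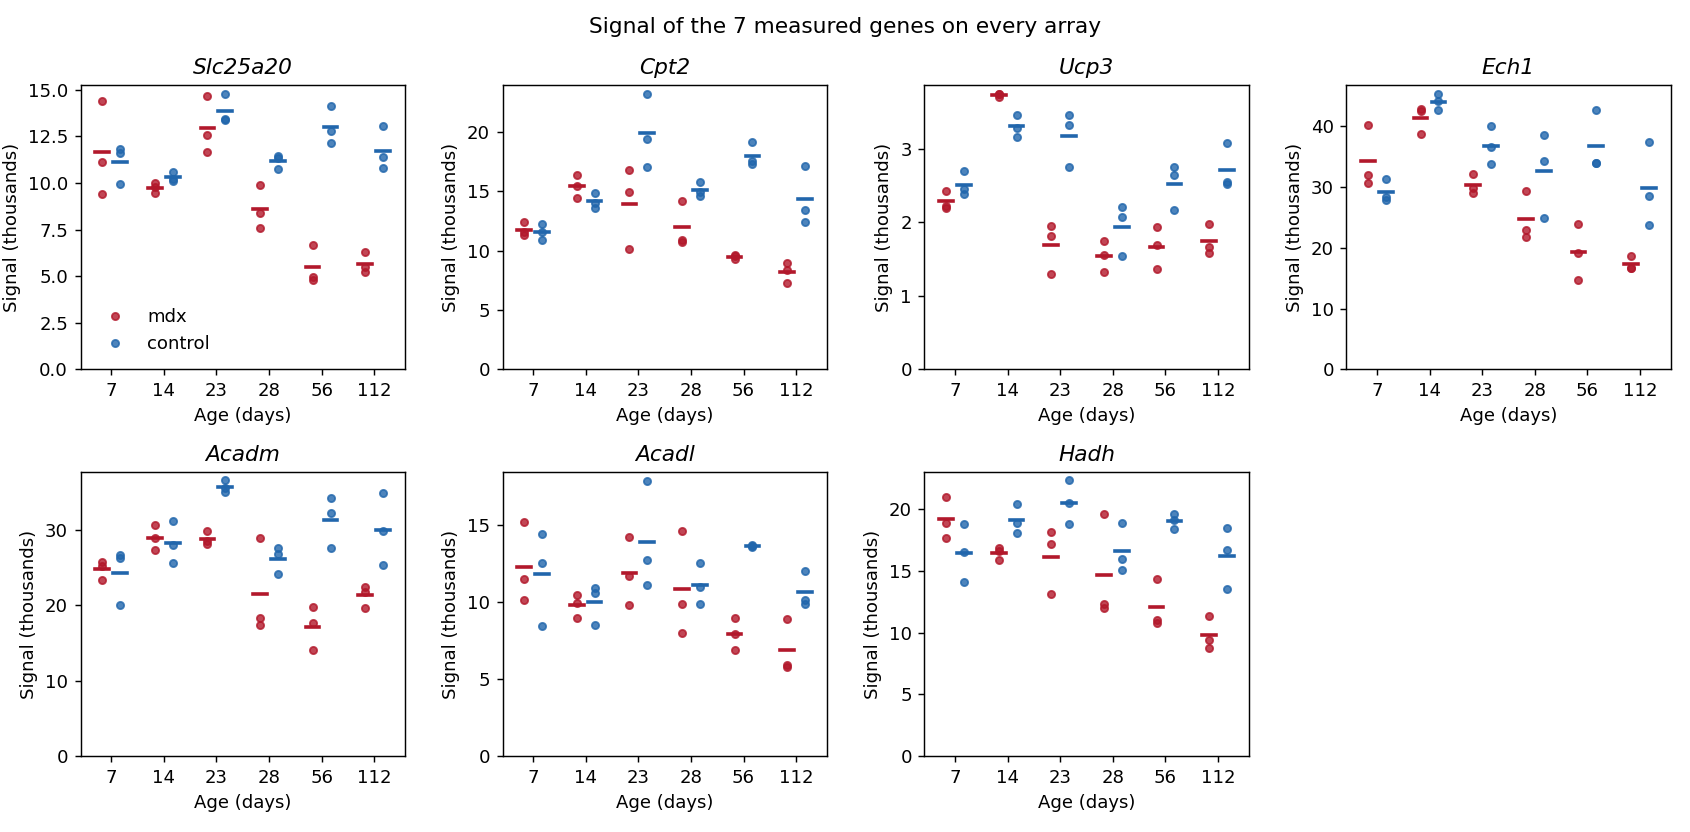
Signal of the 7 measured genes on every array by age in days, with the signal axis starting at 0; points are arrays, mdx in red and control in blue, and bars are group means of 3 arrays. At 56 and 112 days the 3 mdx points lie below the 3 control points in each of the 7 panels.

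Slc25a20, the carnitine shuttle's carrier across the inner membrane, was below its controls by more than a factor of 2 at both later ages. At 56 days it read 4794, 4975 and 6659 units in mdx, against 12766, 14134 and 12145 in controls. At 112 days it read 6286, 5224 and 5483 units in mdx, against 10790, 11375 and 13060 in controls. The highest mdx array lay below the lowest control array at both ages. The fitted signal in mdx was 41.8% of that in controls at 56 days (log2 difference -1.26 ± 0.138 SE, adjusted p = 1.11e-07) and 48.4% at the later age (-1.05 ± 0.138, adjusted p = 2.38e-06). At 28 days it averaged 8633 ± 1172 units in mdx and 11186 ± 397 in controls (SD, n = 3 each), without overlap, but the difference of -0.38 was not called (adjusted p = 0.163). At 23 days both genotypes overlapped, at 11655 to 14681 units in mdx and 13367 to 14763 in controls.

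Cpt2, which acts on the acylcarnitine that Slc25a20 delivers, was called lower in mdx at 56 and 112 days. It was also called at 23 days, a call that several settings ended. Its onset was not tested against that of Slc25a20. At 23 days it read 10132, 16739 and 14956 units in mdx, against 17065, 19370 and 23143 in controls. The difference of -0.53 ± 0.148 was called (adjusted p = 0.0375), but it shrank to -0.32 without mdx replicate 1 (adjusted p = 0.486). It also lost its call without control replicate 2 (-0.54, adjusted p = 0.0959), without control replicate 3 (-0.41, adjusted p = 0.235), and without the 9 arrays with high albumin, none of them of 23 days (-0.53, adjusted p = 0.0674). Quantile normalization (-0.45, adjusted p = 0.119), scaling to the same median (-0.59, adjusted p = 0.0769), no filter, array weights and a fit of only the groups compared ended the call as well. At 28 days it averaged 11948 ± 1957 units in mdx and 15087 ± 604 in controls, again without overlap, and was not called (-0.35, adjusted p = 0.285). At 56 days the 3 mdx arrays lay close together at 9282, 9666 and 9530 units, against 17261, 19111 and 17547 in controls. At 112 days they read 8949, 7283 and 8327 units in mdx, against 13400, 12440 and 17154 in controls. The fitted mdx signal was 52.9% of control at 56 days (-0.92 ± 0.148, adjusted p = 5.63e-05) and 57.6% at the later age (-0.80 ± 0.148, adjusted p = 3.13e-04).

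Ucp3 followed a different course, with an early drop in mdx. Its highest group means were at 14 days in both genotypes, a trait shared with Ech1. Cpt2 and Acadm had their highest mdx mean at 14 days as well. At 14 days it read 3699, 3741 and 3737 units in mdx, against 3454, 3162 and 3283 in controls. Every mdx array lay above every control array (difference 0.17, not called, adjusted p = 0.965), as did 6.87% of all probe sets. At 23 days it read 1291, 1946 and 1817 units in mdx, against 2753, 3324 and 3451 in controls. The fitted mdx signal was 53.0% of control at 23 days (-0.92 ± 0.155, adjusted p = 3.10e-04). The change of the mdx minus control difference between 14 and 23 days, a comparison added after the values were seen, was -1.09 ± 0.22 (adjusted p = 0.018). It was called in 1 of the 7 genes, against 0.0646% of all probe sets called lower. That call was lost without control replicate 2 of 14 days, without control replicate 3 or mdx replicate 1 of 23 days (-1.20 to -0.91 over the arrays left out in turn), and without the arrays with high albumin. At 28 days it read 1323, 1746 and 1560 units in mdx, against 1536, 2208 and 2074 in controls, and the groups overlapped (-0.32, adjusted p = 0.4). It read 1694, 1936 and 1366 units in mdx at 56 days, against 2164, 2743 and 2638 in controls. At the last age it read 1581, 1979 and 1658 in mdx at 112 days, against 2514, 3069 and 2550 in controls. Both later differences were called, at -0.59 ± 0.155 (adjusted p = 0.00792) and -0.63 ± 0.155 (adjusted p = 0.00533), the first not without mdx replicate 3 (-0.46, adjusted p = 0.0607).

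The acyl-CoA dehydrogenases Acadm and Acadl were lower in mdx at both later ages, with adjusted p near the threshold at 112 days. Acadm read 14118, 19732 and 17667 units in mdx at 56 days, against 34209, 32247 and 27589 in controls. At 112 days it read 22472, 21822 and 19711 units in mdx, against 29920, 25314 and 34934 in controls. The groups were apart at both ages, at a fitted 54.5% of control at 56 days (-0.87 ± 0.161, adjusted p = 2.79e-04) and 71.5% at the later age (-0.48 ± 0.161, adjusted p = 0.0453). Acadl read 7906, 6901 and 8995 units in mdx at 56 days, against 13730, 13612 and 13646 in controls. At 112 days it read 8918, 5921 and 5784 units in mdx, against 10141, 9905 and 11998 in controls, where mdx replicate 1 came nearest to the controls. The differences were -0.79 ± 0.213 (adjusted p = 0.00956) and -0.66 ± 0.213 (adjusted p = 0.039). At 112 days each of these 2 calls was lost when any 1 of 5 of the 6 arrays was left out, with adjusted p of up to 0.178 for Acadm and 0.162 for Acadl. At 23 days Acadm was apart but not called, at 28166 to 29820 units in mdx and 35069 to 36609 in controls (-0.31, adjusted p = 0.393).

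Hadh and Ech1, a dehydrogenase of hydroxyacyl intermediates and the isomerase for unsaturated chains, were called lower in mdx at both later ages. At some earlier ages they lay apart from controls without a call, but both overlapped them at 28 days (Hadh -0.22, Ech1 -0.38, not called). Hadh read 15886, 16845 and 16573 units in mdx at 14 days, against 18040, 20426 and 18859 in controls (-0.22, adjusted p = 0.944). At 23 days it read 13139, 17161 and 18089 units in mdx, against 22320, 18752 and 20433 in controls (-0.36, adjusted p = 0.313). The groups did not overlap at either of these ages. All mdx arrays lay below all control arrays in 6.05% of all probe sets at 14 days and 10.3% at 23 days. Hadh read 11000, 10780 and 14328 units in mdx at 56 days, against 18390, 19568 and 19060 in controls. At 112 days it read 11370, 9403 and 8731 units in mdx, against 13479, 16680 and 18452 in controls. The fitted mdx signal was 62.9% of control at 56 days (-0.67 ± 0.166, adjusted p = 0.0052) and 60.9% at the later age (-0.72 ± 0.166, adjusted p = 0.00316). Ech1 was also apart at 23 days, at 28988 to 32109 units in mdx and 33785 to 39986 in controls (-0.28, adjusted p = 0.531). It read 14714, 19222 and 23905 units in mdx at 56 days, against 33948, 42619 and 33972 in controls. At 112 days it read 18636, 16641 and 16704 units in mdx, against 23759, 28559 and 37484 in controls. It stood at 51.7% of control at 56 days (-0.95 ± 0.177, adjusted p = 3.14e-04) and 58.9% at the later age (-0.76 ± 0.177, adjusted p = 0.00311).

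Counted by age, 0 of the 7 genes were called at 7 days, where 0.463% of all probe sets were called in either direction, and 0 of 7 at 14 days, where 0.194% were. None had an unadjusted p under 0.05 at either age. The median difference of the 7 was 0.05 at 7 days and -0.03 at 14 days. All 7 overlapped between genotypes at 7 days, where 7.16% of all probe sets had all mdx arrays below and 8.22% all above. At 14 days 2 of the 7 had all mdx arrays below, Slc25a20 (-0.08) and Hadh, against 6.05% of all, and 1, Ucp3, had them above. At 23 days 2 of 7 were called lower, against 0.807% of all probe sets (2.68% were called higher, 3.49% in all), and the median was -0.31, against -0.01 for all. In 5 of the 7 all mdx arrays lay below all control arrays at 23 days, against 10.3% of all probe sets. At 28 days 0 of 7 were called by limma, 3 had an unadjusted p under 0.05, and 0.538% of all were called lower, 2.42% higher and 2.96% in all. All 7 differences were negative at 28 days, from -0.38 to -0.08, and 2 of 7 did not overlap, against 10% of all. The change of the difference between 23 and 28 days was not called for any of the 7 by limma (adjusted p from 0.931 to 0.999), nor lower for any probe set (0%).

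At 56 days 7 of 7 were called lower, against 7.38% of all probe sets, with a median difference of -0.87, against 0.15 for all. At 112 days 7 of 7 were called lower, against 4.52% of all, with a median of -0.72, against 0.02. No gene overlapped between genotypes at either age, a state found in 12.7% of all probe sets at 56 days and in 9.84% at 112 days. Calls were commoner among bright probe sets: of the 10% with the highest mean signal, which hold 6 of the 7, 27.7% were called lower at 56 days and 11.9% at 112 days, with median differences of -0.28 and -0.06. In whole muscle, fewer fibres and less transcript per fibre cannot be told apart. At 112 days leaving out the arrays with high albumin left 2 mdx arrays and 1 control array. The difference was then -0.87 for Slc25a20, and the other 6 ran from -0.63 to -0.43. Most calls were lost, but high albumin and the smaller number of arrays cannot be told apart here. With only the groups compared, Slc25a20 and Cpt2 were called at 112 days, 2 of the 7. At 56 days all 7 remained called without 1 such control array, but 3 with quantile normalization.

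**Figure D2:**
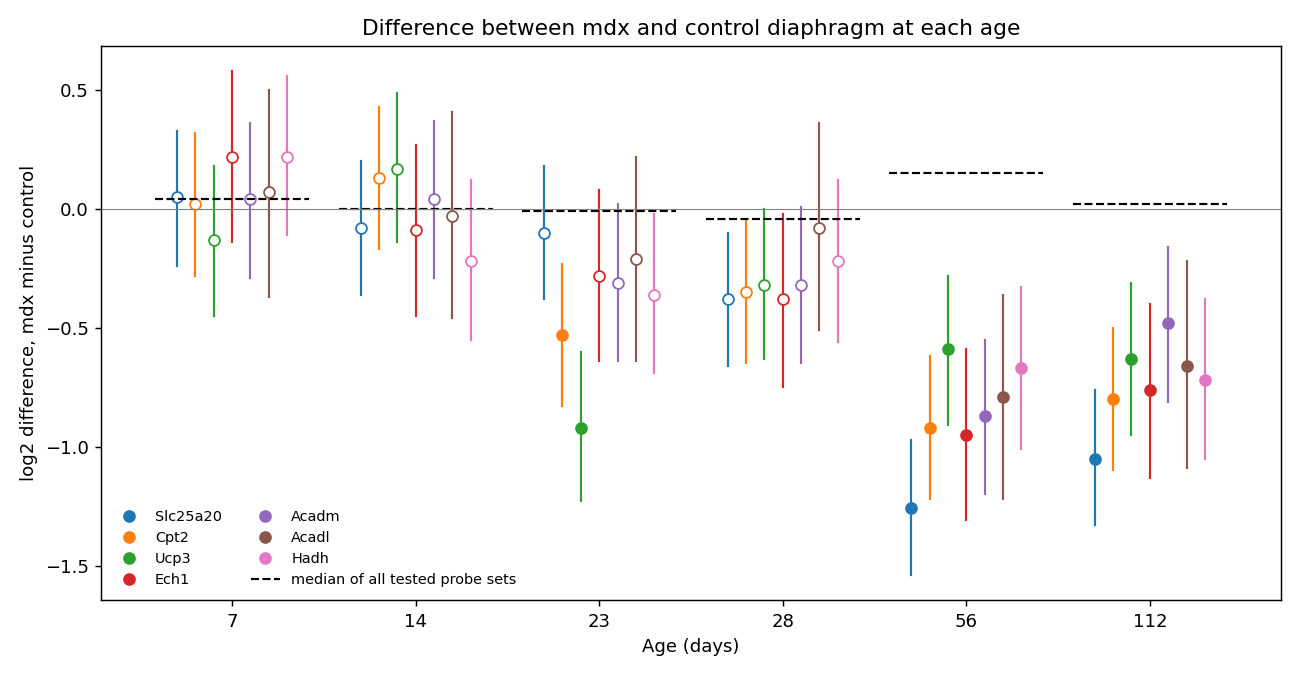
Difference between mdx and control (log2 scale) of the 7 genes at each age in days, with 95% confidence intervals; filled points are called, open points are not, and dashed lines are the median of all 9291 tested probe sets. The points lie around 0 at 7 and 14 days, all lie below 0 from 23 days on, and all are filled at 56 and 112 days.

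Averaged over the 6 ages, all 7 genes were lower in mdx, from -0.47 ± 0.0564 for Slc25a20 to -0.28 for Acadl, against 7.41% of all probe sets called lower. Without the arrays with high albumin the calls of Acadl and Hadh over the ages were lost, and that of Acadl also with quantile normalization. The F test of whether the difference depends on age was called for 6 of the 7, against 8.93% of all. Its adjusted p was 2.27e-05 for Slc25a20, 0.00232 for Cpt2, 0.00999 for Ucp3, 0.0135 for Ech1, 0.0399 for Acadm and 0.0483 for Hadh, and 0.165 for Acadl. The F test called 3 with quantile normalization and 3 with the Gapdh ratio as covariate. Those of Acadm and Hadh were lost without 19 and 26 of the 36 single arrays, and without the arrays with high albumin only Slc25a20 was called. Between neighbouring ages after 23 days no change of the difference was called. The nearest was Slc25a20 between 28 and 56 days, at -0.88 ± 0.195 (adjusted p = 0.0573), where 0.0215% of all were called lower, against 0.0108% between 7 and 14 days and 0.0538% between 56 and 112 days. Of these steps between neighbouring ages, which were added after the values were seen, the call for Ucp3 between 14 and 23 days was the only one among the 7 genes.

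As the animals matured, 4 of the 7 genes fell in mdx between 28 and 112 days and 1 rose in controls, and the difference between genotypes in these changes was not called. Between 7 and 28 days 1 of the 7 genes was called in mdx, Ucp3 at -0.56 ± 0.155 (adjusted p = 0.0179; 3.68% of all called lower), and lost without mdx replicate 1 of 7 or of 28 days. In controls 0 of 7 were called by limma, where 2 had an unadjusted p under 0.05 and 14.7% of all probe sets were called, 8.07% lower and 6.59% higher (5.64% were called higher in mdx). The control changes ran from -0.38 for Ucp3 to 0.38 for Cpt2. Between 28 and 112 days 4 of the 7 were called lower in mdx, against 7.57% of all: Slc25a20 at -0.60, Cpt2 at -0.54, Acadl at -0.64 and Hadh at -0.54, with adjusted p of 0.00508, 0.0152, 0.0403 and 0.0269. In controls over the same ages 1 was called, Ucp3 at 0.49 (adjusted p = 0.0257; 9.49% of all called higher). It was lost without control replicate 1 of 28 days or control replicate 2 of 112 days. The other 6 changed by -0.12 to 0.19. The genotype difference in these changes was not called by limma for any of the 7 between 7 and 28 days (median -0.37, 2 with an unadjusted p under 0.05, 2.22% of all called). Nor was it between 28 and 112 days (median -0.45, 3 with an unadjusted p under 0.05, 0.129% of all called). These comparisons share arrays of 28 days, so they are not independent of each other. The mdx calls between 28 and 112 days numbered 1 without mdx replicate 1 of 28 days, 1 without mdx replicate 2 and 2 without mdx replicate 3 of 112 days, and 1 without the arrays with high albumin.

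Across the 12 groups of genotype and age, mdx at 56 and 112 days held the 2 lowest means of all genes but Ucp3, whose lowest were mdx at 28 and 56 days. The highest group mean was 2.37 times the lowest within mdx and 1.34 times within controls for Slc25a20, and 1.95 and 1.27 times for Hadh. Most neighbours in the order overlapped: of the 11 neighbouring pairs, 3 were apart for Cpt2, 2 for Slc25a20, 1 each for Ucp3 and Acadm, and 0 for Ech1, Acadl and Hadh. Over the 12 group means the genes correlated with each other at Pearson r from 0.34 (Ucp3 and Acadl) to 0.93 (Slc25a20 and Acadl); the points share arrays and the contrast of genotype, so this is a description. Outside the list, the 8 genes whose group means were most like the average of the 7 were Ephx2 (r = 0.97), Etfb, Fez2 and Pgm1 (0.94 each), Car14 (0.93), Hsdl2 and Ndufab1 (0.92 each) and Rac1 (0.91).

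Of 13 other measured genes of mitochondrial beta oxidation, 10 were called lower in mdx at 56 days, against 7.38% of all probe sets, and 5 at 112 days, against 4.52% of all. Their median differences were -0.70 and -0.49, and all 5 calls at 112 days were lost without the arrays with high albumin. At 56 days they included the enoyl-CoA hydratase Echs1 (-1.15), the dienoyl-CoA reductase Decr1 (-0.98), the carnitine acetyltransferase Crat (-0.70), the electron transfer flavoprotein subunit Etfa (-0.70), the isomerase Eci1 (-0.68) and the trifunctional protein subunit Hadhb (-0.67). At 112 days Etfdh (-0.83), Echs1 (-0.79), Hadhb (-0.66), Etfa (-0.62) and Eci1 (-0.59) were called. Among 9 genes of fatty acid uptake, binding and activation, 3 were called lower at 56 days and 2 at 112 days. They were the fatty acid transporter Cd36 (-1.32 and -0.91), the lipoprotein lipase Lpl (-0.93 and -0.82) and, at 56 days, the binding protein Fabp3 (-0.61). The transporter Slc27a4 was called higher at 28 days (1.33, adjusted p = 0.0389), but not without control replicate 3, mdx replicate 2 or mdx replicate 3.

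Of all probe sets, 7.38% were called lower at 56 days and 4.52% at 112 days. Of 11 regulators and fuel switch genes, 5 were called lower at 56 days and 2 at 112 days. They were the nuclear receptor Rxrg (-1.33), the coactivator Ppargc1a (-1.01), the pyruvate dehydrogenase kinase Pdk4 (-0.76, and -0.73 at 112 days), the receptor Esrra (-0.66, and -0.48 at 112 days) and the fatty acid sensing receptor Ppara (-0.54). The calls of Ppara, Ppargc1a and Rxrg at 56 days were lost without 5, 3 and 6 of the 6 single arrays. Of 7 peroxisomal genes, 3 were called lower at 56 days, Abcd3 (-0.85), Hsd17b4 (-0.84) and Pex11a (-0.73), and 4 at 112 days, Abcd2 and Scp2 (-0.88 each), Pex11a (-0.59) and Abcd3 (-0.54). Of the 10% of probe sets with the highest mean signal, 27.7% were called lower at 56 days and 11.9% at 112 days. The TCA cycle burns the acetyl-CoA made by beta oxidation. Of its 18 measured genes, 13 were called lower at 56 days and 7 at 112 days, with medians of -0.67 and -0.34. At 23 days 2 were called lower, against 0.807% of all probe sets. These were Idh3a (-0.59) and Suclg2 (-0.55), both lost without mdx replicate 1. Those called at 56 days included the isocitrate dehydrogenase subunit Idh3a (-0.71) and the succinate-CoA ligase subunits Suclg1 (-0.74), Sucla2 (-0.64) and Suclg2 (-0.56). Across these 5 lists 34 genes were called lower at 56 days, of which 15 lost their call with quantile normalization, and 20 at 112 days, of which 18 lost it without the arrays with high albumin. Of these, 14 at 56 days and 7 at 112 days lost their call without some single array. Among those named, the genes that lost it at 56 days included Ppara, Ppargc1a and Rxrg, as given above. Others were Hadhb (without mdx replicate 1) and Fabp3 (without mdx replicate 1, control replicate 1 or control replicate 2). So were Lpl (without mdx replicate 3), Hsd17b4 (without mdx replicate 1 or control replicate 2) and Suclg2 (without control replicate 3). At 112 days they were Echs1 and Etfa (without mdx replicate 2), Lpl (without mdx replicate 2, control replicate 1 or control replicate 2), Pex11a (without mdx replicate 3 or control replicate 2), Abcd2 (without mdx replicate 3, control replicate 1 or control replicate 3) and Esrra (without mdx replicate 2 or 3, control replicate 2 or 3).

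**Figure D3:**
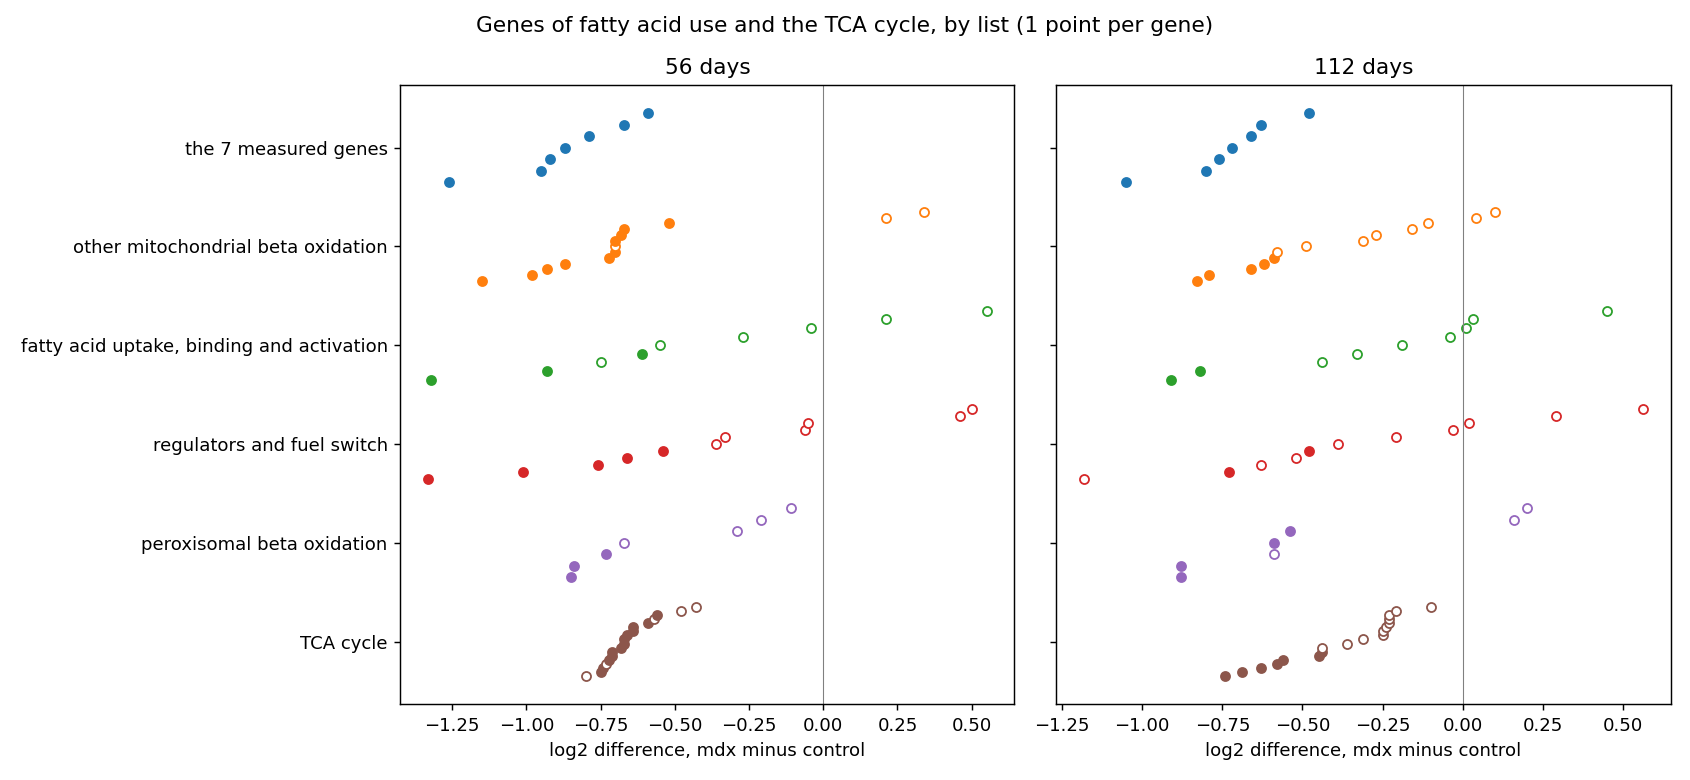
Difference between mdx and control (log2 scale) of each gene of 6 lists at 56 and at 112 days; each point is a gene, filled where called and open where not, spread vertically by rank within its list. The 7 measured genes are all filled and below 0 at both ages, with TCA cycle and other beta oxidation genes at similar differences at 56 days.

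Markers of several cell types of the tissue also differed between genotypes, some from 14 days on, and their part in the results was not tested. Of 20 muscle fibre genes, 9 were called lower at 56 days (2 to 12 with single arrays left out) and 1 at 112 days, against 7.38% and 4.52% of all probe sets, with medians of -0.75 and -0.18. Their summed signal was 209365 to 549127 units in mdx and 488772 to 683023 in controls at 56 days. Their sum at 112 days was 493195 to 504761 in mdx and 397521 to 696987 in controls. Of all probe sets, 2.68%, 2.42%, 9.27% and 7.65% were called higher at 23, 28, 56 and 112 days. Of 13 macrophage markers 2 were called higher at 14 days, against 0.194% of all probe sets called in either direction. This count was not followed under other settings. Macrophage markers were called higher in 13 of 13 at 23 days, 10 at 28, 11 at 56 and 11 at 112 days. Their sum over 14 genes was 65217 to 78118 units in mdx and 21529 to 26254 in controls at 56 days. Their sum at 112 days was 78323 to 84914 in mdx and 20606 to 21857 in controls. Of 11 fibroblast and matrix markers 7 were called higher at 56 days and 8 at 112 days. Their sums were 127180 to 187686 units in mdx and 95361 to 100427 in controls at 56 days, and 148911 to 177450 in mdx and 66887 to 77632 in controls at 112 days. Of 7 adipocyte markers, 4 were called lower at 56 days and 2 at 112 days. Their sums were 7054 to 9768 units in mdx and 13668 to 18271 in controls at 56 days, and 6950 to 11429 in mdx and 12557 to 14757 in controls at 112 days. Adipoq was at -1.78 and Cidec at -2.11 at 56 days, Cidec not called without mdx replicate 1 or control replicate 2. Lep (0.34) and Fabp4 (0.21) had positive differences at 56 days, as had Lep at 112 days (0.45), none of them called. Of 4 genes listed as brown adipocyte markers 1 was called lower at each of these ages, Cox7a1, which read at least 9364 units on every array. The cell source of Cox7a1 was not tested. Ucp1 (-0.91 at 56 days and -0.43 at 112 days), Cidea (-0.36 and -0.24) and Cox8b (-0.63 and -0.43) were not called. Ucp1 did not exceed 1171 units on any array. Hepatocyte markers summed to 2035 to 2915 units in mdx and 3300 to 34052 in controls at 56 days, and to 2752 to 27762 in mdx and 2776 to 101594 in controls at 112 days. By limma, 0 of 12 were called at either age (1 and 2 with an unadjusted p under 0.05). No marker of these lists was at 0.

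The mean log2 signal of the 7 genes minus that of the 20 muscle fibre genes on the same array was read only between genotypes, since its level depends on the probe sets. It averaged -1.45 in mdx at 112 days (range -1.60 to -1.28) and -0.79 in controls (range -1.15 to -0.21), without overlap. Control replicate 2, at -0.21, raised the control average, and control replicates 1 and 3 were at -1.15 and -1.01, nearer to the mdx arrays. Control replicates 2 and 3 and mdx replicate 2 of this age were arrays with albumin above 10000. Without them, control replicate 1 at -1.15 stood against mdx replicates 1 and 3 at -1.28 and -1.60. At 56 days the averages were -0.80 in mdx (range -1.46 to -0.02) and -0.72 in controls (range -0.94 to -0.39), and the ranges overlapped. With the TCA cycle genes in place of the muscle fibre genes, the averages were -0.72 in mdx and -0.51 in controls at 56 days, and -0.89 in mdx and -0.54 in controls at 112 days, with the mdx arrays below the control arrays at both ages. These are descriptions of 3 arrays a group, with no test.

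**Figure D4:**
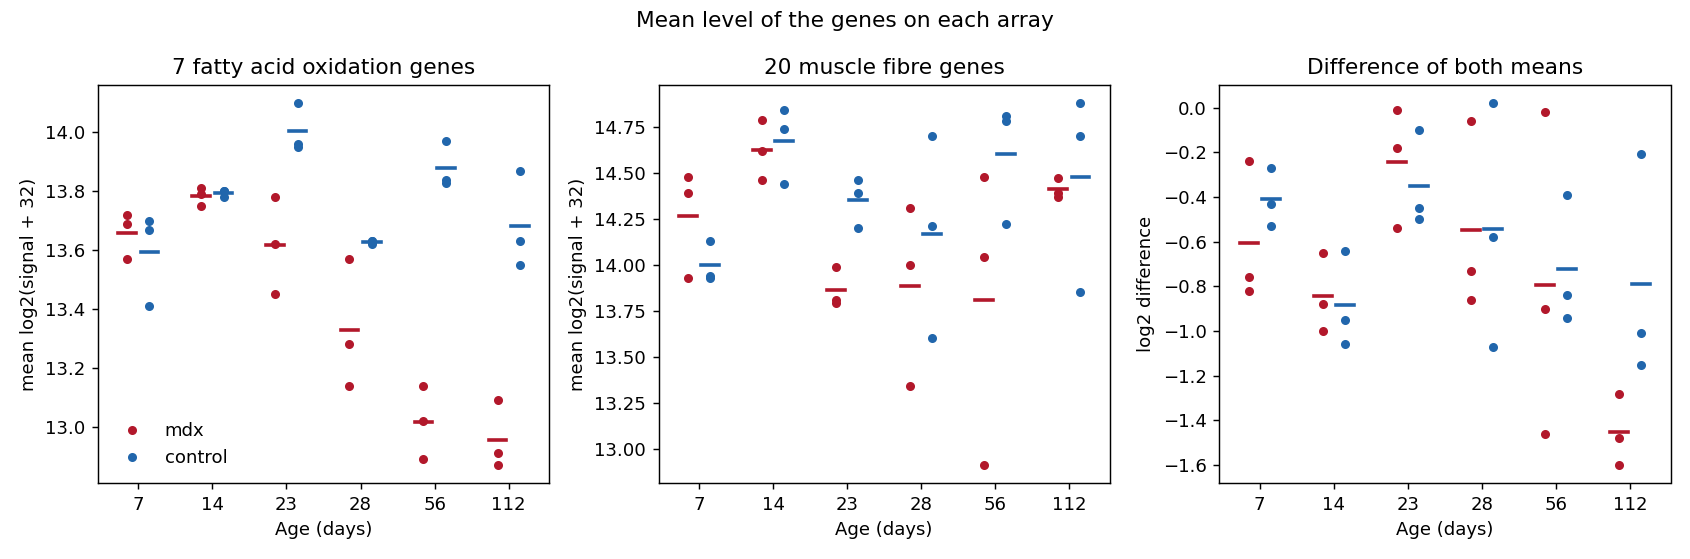
Mean log2(signal + 32) on each array of the 7 fatty acid oxidation genes (left), of 20 muscle fibre genes (middle) and their difference (right) by age in days; points are arrays, mdx in red and control in blue, and bars are group means. In the right panel the 3 mdx arrays of 112 days lie between -1.60 and -1.28, below the 3 control arrays of that age.

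The scaling of the arrays touched the size of the late differences. With quantile normalization, which moved the median of all probe sets at 56 days to 0.00, 3 of the 7 stayed called at 56 days, Slc25a20 (-1.11), Ucp3 (-0.72) and Cpt2 (-0.62). The others, Acadl (-0.58), Ech1 (-0.45), Acadm (-0.42) and Hadh (-0.32), had adjusted p from 0.0531 to 0.181. With every array scaled to the same median the 56 day differences ran from -1.52 for Slc25a20 to -0.85 for Ucp3, and all 7 were called. All 7 differences stayed negative at 56 and at 112 days under each of the 10 settings drawn.

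**Figure D5:**
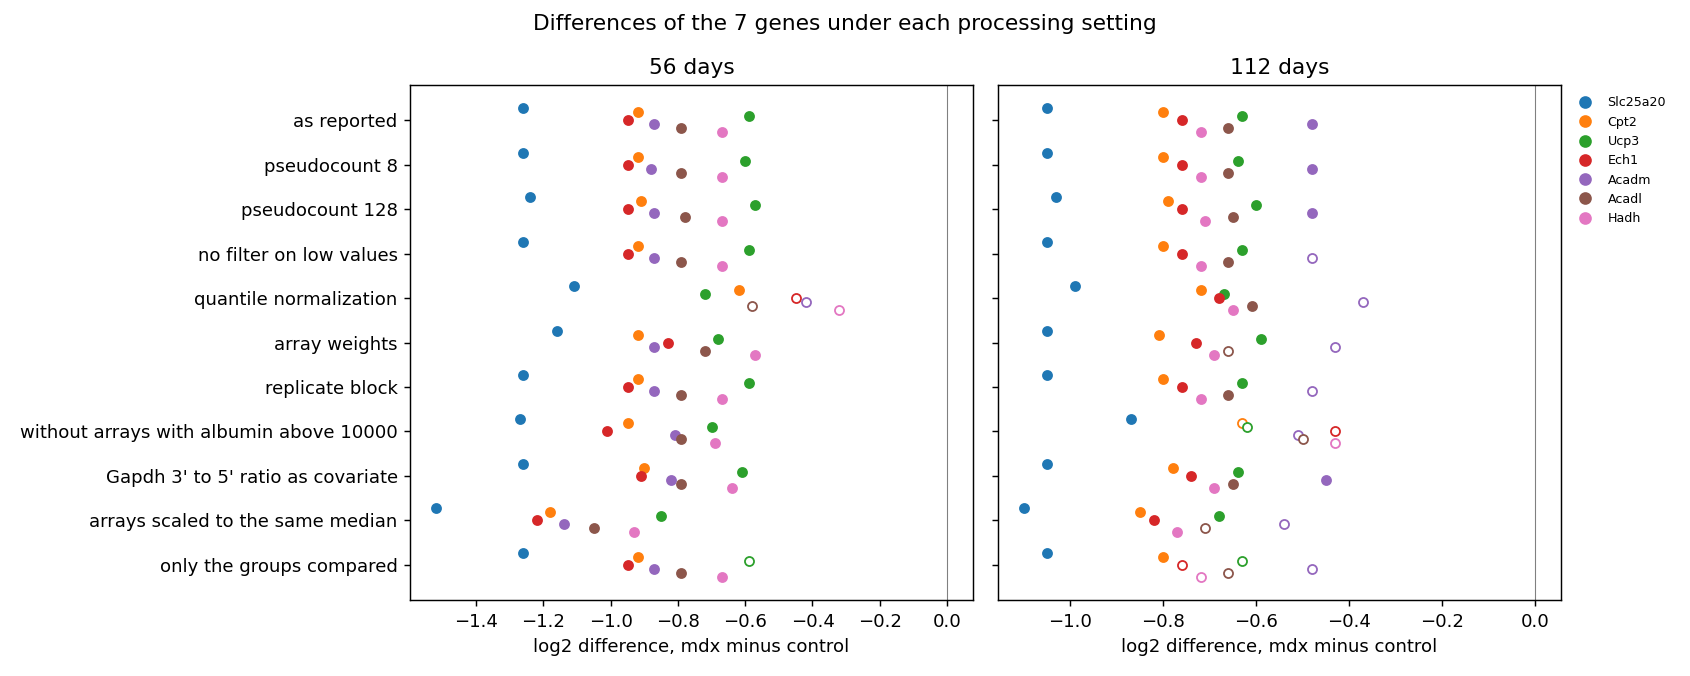
Difference between mdx and control (log2 scale) of the 7 genes at 56 and 112 days as reported and under 10 other processing settings, 1 row per setting; filled points are called, open points are not. No point reaches 0, and most open points lie in the rows for quantile normalization at 56 days and for leaving out arrays with high albumin or fitting only the groups compared at 112 days.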

How the data were processed

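The deposited table gives 1 intensity per probe set and array on a linear scale. Per the labels the arrays followed the maker's standard protocol, and the software behind the authors' intensity values is not stated in what was used here. On each array the mean over percentiles 2 to 98 was 1499.2 to 1499.7, so the deposited columns already shared 1 level and no further scaling was applied. Labels matched the 36 columns to 36 samples, 3 in each of 12 groups.

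Values were analysed as log2(value + 32), which understates differences of dim probe sets. The filter asked for at least 3 arrays above percentile 40 of all values (374 units) and left 9291 of 12488 probe sets; 66 control probe sets were left out. Differences came from limma 3.58.1 in R 4.3.3 (12 group means, eBayes with trend, 24 residual degrees of freedom), with Benjamini-Hochberg adjustment over all 9291 and calls at an adjusted p under 0.05. The number of arrays limits the precision. Gene names came from the platform annotation, and 10817 of the 10833 probe sets with 1 symbol matched RefSeq; promoters are RefSeq's in GRCm38.p6. The fit was tested on simulated data with independent noise for each probe set and no array-wide effects. The outcome is not given here, and no result rests on it.

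The genes and lists were chosen with earlier results of these data known, so no list is independent evidence. Each list gene is read by its brightest probe set, and up to 6 called genes of a list are named per comparison, those with the lowest adjusted p for the average over ages first. Alternatives were pseudocounts of 8 and 128, no filter, quantile normalization, array weights, a replicate block, the Gapdh ratio as covariate, only the groups compared, and leaving out arrays with albumin above 10000 or single arrays; scaling to the same median and the differences between neighbouring ages were added after seeing the data.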

Additional observations from a re-analysis of the deposited data

Results flagged for a closer look

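The F test called an age dependence of the mdx minus control difference in 6 of the 7 genes, but in 3 with quantile normalization, 3 with the Gapdh ratio as covariate and 1, Slc25a20, without the arrays with high albumin. The limma F statistic of that age dependence was 15.9 for Slc25a20 (adjusted p = 2.27e-05), 8.27 for Cpt2 (adjusted p = 0.00232) and 6.35 for Ucp3 (adjusted p = 0.00999). It was 5.97 for Ech1 (adjusted p = 0.0135), 4.57 for Acadm (adjusted p = 0.0399) and 4.35 for Hadh (adjusted p = 0.0483). Ucp3 also differed between neighbouring ages: its mdx minus control difference changed by -1.09 on the log2 scale between 14 and 23 days (adjusted p = 0.018), a comparison added after the values were seen.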

How the results depend on the processing

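The 30 called differences of the 7 genes and the 141 called differences of list genes kept their sign under every alternative run; small differences that were not called were not followed. The counts below are of the 7 genes called. At 23 days 1 gene, Ucp3, was called in place of 2 with no filter, quantile normalization, array weights, the same median for all arrays, only the groups compared, and without the arrays with high albumin, and 1 to 2 with single arrays left out. At 56 days 3 were called with quantile normalization, and 6 to 7 with single arrays left out. Ucp3 lost its call at 56 days with only the groups compared (adjusted p = 0.0564 by limma). At 112 days 1 was called without the arrays with high albumin, 2 with only the groups compared, and 5 to 6 with single arrays left out. The F test called 3 with quantile normalization, 3 with the Gapdh ratio, 1 without the arrays with high albumin, and 4 to 6 with single arrays left out. From 7 to 28 days array weights called 4 in mdx and 2 in controls, in place of 1 and 0, and only the groups compared 0 in mdx and 1 in controls. In mdx quantile normalization called 3, the same median 0 and left-out arrays 1 to 2. From 28 to 112 days the count in mdx was 2 with quantile normalization, 1 without the arrays with high albumin, 1 with only the groups compared, and 1 to 5 with single arrays left out, in place of 4. In controls it was 0 without the arrays with high albumin, with the Gapdh ratio, the same median and only the groups compared, and 0 to 1 with single arrays left out, in place of 1. The step from 14 to 23 days had 0 called without the arrays with high albumin and with only the groups compared, and 0 to 1 with single arrays left out. That from 28 to 56 days had 1 called with array weights, and 0 to 1 with single arrays left out. The labels do not say whether replicate numbers pair the samples. Deviations of the 18 same-numbered pairs correlated at -0.23 to 0.15, and those of differently numbered pairs at -0.19 to 0.19. With 3 arrays a group these values cannot decide whether the samples were paired. With the replicate block 2 were called at 23 days, 7 at 56 days and 6 at 112 days, where Acadm was lost. Acadm was also lost at 112 days with no filter, quantile normalization, array weights and the same median for all arrays. Acadl was lost at 112 days with array weights and the same median.

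Of all 9291 probe sets, array weights called 71, 39, 1293 and 519 at 7, 14, 23 and 28 days, against 43, 18, 324 and 275, and 1610 by the F test, against 830. Only the groups compared gave 0, 6, 199 and 335 at 7, 14, 23 and 112 days, the last against 1131. Without the arrays with high albumin 13 were called at 7 days, 605 at 112 days and 429 by the F test, and with the Gapdh ratio 10 at 7 days. Single arrays left out gave 17 to 59 at 7 days, 7 to 20 at 14, 125 to 549 at 23, 148 to 239 at 28 and 987 to 1597 at 56 days, the last against 1547. The causes were not tested, except that fits on fewer groups or arrays have fewer samples by construction. With 3 arrays a group, smaller differences may have gone uncalled.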

Other observations

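Between 7 and 28 days genes of the other fatty acid lists changed within each genotype, against 3.68% of all probe sets called lower and 5.64% called higher in mdx and 8.07% and 6.59% in controls. Of 18 TCA cycle genes, 0 were called by limma in mdx (2 with an unadjusted p under 0.05) and 6 were called higher in controls (median change -0.06 in mdx and 0.27 in controls), including Idh3a (0.84, adjusted p = 5.91e-05) and the succinate dehydrogenase subunit Sdha (0.90, adjusted p = 4.86e-04). Of 13 other beta oxidation genes, 2 were called lower in mdx, Decr1 (-0.76) and Eci2 (-0.79). In controls 3 were called higher, Echs1 (0.58), Eci1 (0.53) and Etfa (0.53), and 1 lower, Cpt1a, the liver form of the outer membrane transferase (-1.39, adjusted p = 8.85e-06). The nuclear receptors Ppara (1.14, adjusted p = 4.60e-05) and Esrra (1.01, adjusted p = 1.11e-05) were called higher in controls, and Esrra also in mdx (0.48, adjusted p = 0.0417). The lipase inhibitor Angptl4 was called lower in both genotypes (-1.61 in mdx and -0.80 in controls), as was the acyl-CoA thioesterase Acot1 (-1.46 in mdx and -0.83 in controls). Of 7 peroxisomal genes, Hsd17b4 (0.81 in mdx and 0.93 in controls) and Abcd3 (0.33 in mdx and 0.52 in controls) were called higher in both, and Pex11a in controls (0.76). Of 9 uptake genes, Slc27a1 was called lower in mdx (-0.98), and in controls Cd36 was called higher (0.62) and Slc27a4 lower (-1.30). The difference between genotypes in these changes was called by limma for 0 of the 58 genes of the 5 lists (19 with an unadjusted p under 0.05), and the alternatives were not run on these single genes.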
